A study of Homo sapiens with 36 samples.

Results

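The comparison described here is that of the EGFR-binding RNA aptamer MinE07 with the control aptamer C36 in H820, a human non-small cell lung cancer line. It uses 6 of the 36 libraries of the study, the 3 titled H820, MinE07 and the 3 titled H820, C36. Genes entered when their mean expression over these 6 libraries was at least 1 FPKM (fragments scaled to transcript length and library size) and no library was at 0. This kept 13637 of the 66366 named genes. Per the labels, H820 carries an EGFR allele with an exon 19 deletion and T790M, and every H820 group shares that genotype. Cells received 3 µM aptamer for 24 h in RPMI medium with 1% serum, or vehicle (phosphate-buffered saline with magnesium) for the same time. The design text describes the control as an extended form of C36. The study gave the same aptamers and vehicle to H3255 (EGFR L858R) and H1975 (EGFR L858R/T790M), also in RPMI, and to A549 (wild-type EGFR) in DMEM, with 3 libraries a group from independent experiments and poly-A-selected, stranded RNA sequencing. H820 is 1 established line, so the replicates measure repeat treatments of that line. In the fit of the 9 H820 libraries p-values refer to the spread of those treatments. In the fit of all 36 libraries they refer to a spread shared by the 4 lines.

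EGFR is a receptor tyrosine kinase that is activated by ligands such as amphiregulin and epiregulin and signals through RAS, RAF, MEK and ERK. ERK activity switches on immediate early transcription factors, cyclin D1 and a set of feedback inhibitors, the dual-specificity phosphatases and the Sprouty and Spred proteins, whose transcripts are widely used as a readout of the pathway. Exon 19 deletions activate the EGFR kinase, and T790M reduces its sensitivity to early EGFR kinase inhibitors. EGR1 is a zinc finger transcription factor of the immediate early class. Its promoter is a textbook target of serum response factor, which binds the CArG box and works there with ETS factors that ERK phosphorylates.

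The sequence shown is the EGR1 promoter, because EGR1 was the gene with the smallest p between the aptamers. It holds the 250 bases before the RefSeq start, chr5:138465229-138465478, plus strand, GRCh38.p14, with matches to the CArG box in capitals.
EGR1: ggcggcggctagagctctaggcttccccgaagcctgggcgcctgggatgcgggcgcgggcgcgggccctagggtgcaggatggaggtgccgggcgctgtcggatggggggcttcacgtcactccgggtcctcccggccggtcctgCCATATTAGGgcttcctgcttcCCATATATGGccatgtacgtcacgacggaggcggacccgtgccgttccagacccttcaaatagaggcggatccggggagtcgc
The 2 matches begin at positions -105 and -83 relative to the start. The CArG motif, searched on both strands since it reads as its own complement, was present in 394 of 27305 genes of the RefSeq table (1.44%), and 11 genes (0.0403%) had 2 or more matches in 1 window. Of the 19 EGFR-MAPK output genes matched in that table, 2 had a match, EGR1 and EGR2. A match describes the letters of the window and not binding.

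The 9 H820 libraries, vehicle included, had relative depths of 0.836 to 1.26 times the median library. FPKM values keep no absolute read number, so no counting interval can be given. The number of genes above 1 FPKM ranged from 13604 to 13765. Epithelial markers were present at means of 724 FPKM for KRT8, 26.1 for EPCAM, 22.1 for CDH1 and 29.7 for the lung lineage factor NKX2-1, whereas SFTPA1, SFTPA2, SFTPB, SFTPC, SFTPD and NAPSA were all below 0.5. Of the markers of other cell types, 8 of 9 fibroblast, 9 of 10 immune and 6 of 6 endothelial genes were below 1 FPKM in the MinE07 libraries, the exceptions being LUM (44.1, 43.0 and 45.8) and CD14. In MinE07 replicates 1 and 2, the deepest of the set, the mitochondrial genes RNR2, COX1, ND4 and ND4L are listed at 0, while the other 7 libraries hold them at 9035 FPKM or more. Whether such a 0 was measured or is a failed estimate cannot be read from the files, and no difference is drawn from it. These were among the 97 genes left out because a library was at 0.

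Few transcripts separated MinE07 from C36 in H820. A total of 4 of 13637 genes passed an adjusted p of 0.05 in limma on log2(FPKM + 0.5), which is 0.0293% of those tested. Of these, 1 fell (EGR1; 0.00733% of those tested) and 3 rose (ALDH3B1, NPIPA5 and FAAP100; 0.022%). An unadjusted p below 0.05 was reached by 1403 genes (10.3%), 939 of them higher (6.89%) and 464 lower (3.4%). The MinE07 libraries all lay below all C36 libraries for 928 genes (6.81%) and all above for 1417 (10.4%). The median log2 difference over all tested genes was 0.01.

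**Figure D1:**
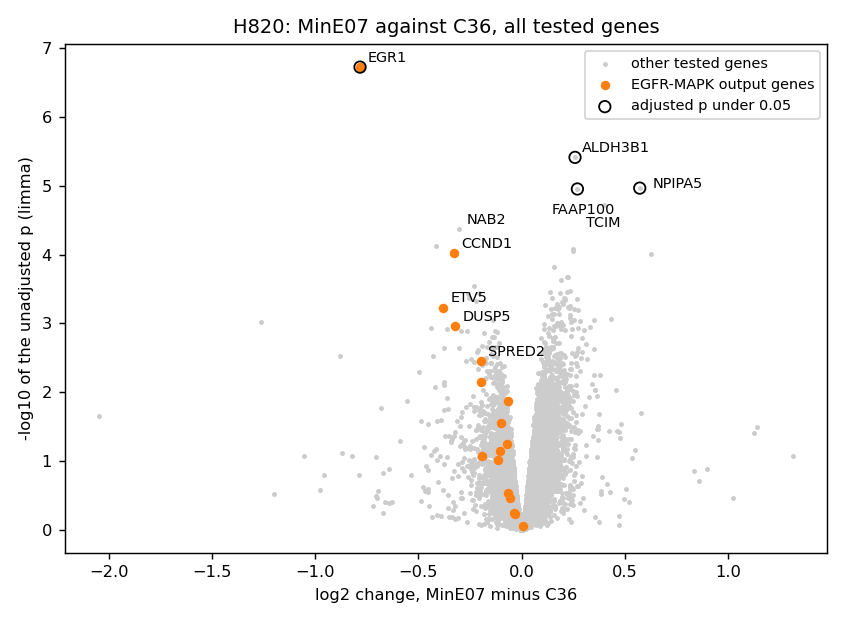
Log2 difference between MinE07 and C36 in H820 (x axis) against -log10 of the unadjusted limma p (y axis) for the 13637 tested genes, with the EGFR-MAPK output genes in orange and the 4 genes with an adjusted p under 0.05 ringed. EGR1 stands alone at the upper left, and 16 of the 17 orange points lie left of 0.

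EGR1 was the clearest change. It measured 2.30, 2.42 and 2.31 FPKM in the C36 libraries and 1.01, 1.27 and 1.18 in the MinE07 libraries, and 2.55, 2.32 and 2.47 with vehicle. The MinE07 libraries were all below the C36 and vehicle libraries, which overlapped each other. EGR1 fell by 0.78 on the log2(FPKM + 0.5) scale (SE 0.06, 95% interval -0.92 to -0.64), with an adjusted p of 0.00257. This scale understates the change of low genes, and with a pseudocount of 0.1 the difference was -0.97. EGR1 lies on chromosome 5 at 138465490 to 138469315 on the plus strand (GRCh38, GENCODE release 29). Each single library could be left out without ending the call, with adjusted p up to 0.0311.

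NAB2, a co-repressor that binds EGR proteins and is itself induced by them, was picked for mention because of its values. This gene measured 5.62, 5.82 and 5.79 FPKM with C36 and 4.59, 4.85 and 4.26 with MinE07, and 5.52, 5.42 and 5.62 with vehicle. The groups did not overlap, at a log2 difference of -0.30 (SE 0.04), but the adjusted p of 0.0973 missed the threshold.

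Receptor transcripts differed little. EGFR measured 7.68, 8.19 and 7.80 FPKM with C36 and 7.65, 7.63 and 7.13 with MinE07. The libraries did not overlap, but the difference of -0.07 log2 (95% interval -0.16 to 0.01) did not pass the test (adjusted p = 0.553). The vehicle level of EGFR in H820, 7.54 ± 0.141 FPKM (SD, n = 3), compares with 419 ± 3.34 in H3255, 26.1 ± 1.6 in H1975 and 19.9 ± 0.428 in A549. ERBB2, the preferred dimer partner of EGFR, was at 8.29 ± 0.536 FPKM with C36 and 9.04 ± 0.161 with MinE07 (SD, n = 3), with overlapping libraries and an adjusted p of 0.424. ERBB3, a receptor with little kinase activity of its own, had a difference of -0.01 log2 (95% interval -0.18 to 0.16). ERBB4 was listed at 0 in 8 of the 9 H820 libraries.

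MET, the hepatocyte growth factor receptor and a known bypass route around EGFR, was the most abundant of these receptors. Its C36 libraries held 130, 131 and 132 FPKM and its MinE07 libraries 123, 125 and 122. All MinE07 values lay below all C36 values, by 0.09 log2 (95% interval -0.14 to -0.03), with an adjusted p of 0.301. Its vehicle libraries (125, 120 and 121) overlapped the MinE07 values. Among the 12 tested bypass receptors and ligands, 6 were higher and 6 lower, and their range was -0.09 to 0.18 log2. None passed the test in limma, and 2 had an unadjusted p below 0.05, against 10.3% of all tested genes. GAS6, the ligand of the AXL family, had the smallest p of the list, with 1.12, 1.1 and 0.979 FPKM under C36 and 1.19, 1.30 and 1.34 under MinE07 (adjusted p = 0.388).

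Of 11 EGFR-family ligands, 6 were tested and none passed in limma, with 1 at an unadjusted p below 0.05 (10.3% of all tested genes). AREG, which encodes amphiregulin, measured 3.44, 2.95 and 3.10 FPKM with C36 and 2.66, 2.80 and 2.63 with MinE07. These groups did not overlap, at a log2 difference of -0.19 (SE 0.06, adjusted p = 0.325). EREG, which encodes epiregulin, was the highest-expressed ligand at 54.2, 51.3 and 50.4 FPKM with C36 and 50.9, 48.2 and 49.3 with MinE07, and these overlapped. EREG did fall between vehicle and MinE07, by 0.15 log2 (adjusted p = 0.0400). HBEGF, BTC, NRG1 and EGF had differences between -0.04 and 0.08 log2, with overlapping libraries.

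The ERK-pathway feedback inhibitors split by their level in this line. DUSP6, SPRY4 and DUSP4, classical ERK feedback genes, were nearly absent, at mean levels of 0.0742, 0.0707 and 0.0252 FPKM, and were not tested. In the other lines the vehicle level of DUSP6 was 239 FPKM (H3255), 5.43 (H1975) and 3.83 (A549). Of the inhibitors that H820 did express, DUSP5, a nuclear ERK phosphatase, measured 1.58, 1.37 and 1.31 FPKM with C36 and 1.12, 1.06 and 0.921 with MinE07. SPRED2, which restrains RAS through neurofibromin, measured 6.09, 5.77 and 5.34 against 5.14, 5.03 and 4.65. Neither gene's groups overlapped, at log2 differences of -0.32 for DUSP5 (adjusted p = 0.221) and -0.20 for SPRED2 (adjusted p = 0.295). Of the 8 tested MAP kinase phosphatases, 6 were lower and 2 higher, against 45.8% lower of all tested genes, at a median of -0.05 log2. Only DUSP5 had all MinE07 libraries below the C36 libraries (6.81% of all tested genes), and 1 other had them all above (10.4%).

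SPRED1 and SPRY2, with -0.11 and -0.03 log2, had overlapping libraries. ERRFI1, a direct inhibitor of the EGFR kinase domain, was abundant. It measured 84.2, 81.8 and 83.1 FPKM with C36 and 80.2, 79.2 and 78.2 with MinE07, against 95.4, 94.2 and 94.1 with vehicle. Its groups did not overlap (-0.07 log2, adjusted p = 0.362), and both aptamers lowered it against vehicle, MinE07 by 0.25 log2 (adjusted p = 0.000713) and C36 with -0.19 (adjusted p = 0.00384). DUSP1, an immediate early phosphatase that acts on JNK and p38 as well as ERK, lay on the other side. Its values were 14.5, 14.3 and 13.4 FPKM with C36, 15.8, 16.6 and 16.7 with MinE07 and 13.4, 12.5 and 12.4 with vehicle. DUSP1 was 0.21 log2 higher with MinE07 than with C36 without passing the test (adjusted p = 0.202), and it rose against vehicle by 0.34 (adjusted p = 0.00210).

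Among the transcriptional outputs, ETV5, an ETS factor of the PEA3 group, measured 1.89, 1.59 and 1.82 FPKM with C36 and 1.17, 1.41 and 1.15 with MinE07. The groups were separate, at -0.38 log2 (SE 0.08, adjusted p = 0.202), and ETV5 fell against vehicle by 0.37 (adjusted p = 0.0352). CCND1 encodes cyclin D1, which drives the G1 kinases CDK4 and CDK6. It measured 9.44, 9.84 and 9.09 FPKM with C36, 7.08, 7.78 and 7.48 with MinE07, and 8.26, 7.74 and 7.20 with vehicle. The MinE07 libraries were below the C36 libraries (-0.33 log2, SE 0.05, adjusted p = 0.120) and overlapped the vehicle libraries. C36 raised CCND1 against vehicle by 0.28 log2 (adjusted p = 0.0239).

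FOSL1, an AP-1 subunit stabilised by ERK, showed wide spread, with 20.1, 22.9 and 18.5 FPKM under C36 and 15.7, 19.1 and 18.8 under MinE07. PHLDA1 (-0.10 log2) had separate groups, whereas EPHA2 (-0.10), IER3 (-0.06) and EPHA4 (-0.06) overlapped. MYC was level between the aptamers, at 93.4 ± 3.58 FPKM with C36 and 93.8 ± 4.37 with MinE07 (SD, n = 3). Both aptamers raised MYC against the vehicle level of 73.9 ± 0.741, each by 0.34 log2, with adjusted p of 0.00292 for C36 and 0.00153 for MinE07.

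Over the whole list, 17 of the 28 EGFR-MAPK output genes were expressed enough to be tested, and 16 of them were lower with MinE07 than with C36, against 45.8% of all tested genes. For 8 of the 17 the MinE07 libraries all lay below the C36 libraries, against 6.81% of all tested genes. Only EGR1 passed the test. The median log2 difference of the 17 was -0.10, against 0.01 for all tested genes. The list was chosen with earlier results of these data known, so these shares describe it and test nothing. The mean over the 17 genes, set to the C36 average, was -0.21, -0.14 and -0.19 in the MinE07 libraries, 0.04, -0.01 and -0.03 in the C36 libraries, and -0.06, -0.11 and -0.11 in the vehicle libraries. The vehicle libraries thus fell between the 2 aptamer groups. With the spread estimated over all 36 libraries in place of the 9 of H820, 17 genes passed (9 higher, 8 lower), which is 0.125% of those tested. That set held 5 output genes, all lower (0.0587% of all tested genes were called lower), EGR1, CCND1, ETV5, DUSP5 and SPRED2, and also NAB2. The log2 differences were the same in both fits, and of these genes only EGR1 passed with the 9 libraries of H820. The larger fit shares 1 spread over 4 lines, in which a gene can lie at other levels. CCND1 had vehicle means of 7.73 FPKM in H820 and 212, 61.4 and 90.6 in H3255, H1975 and A549.

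**Figure D2:**
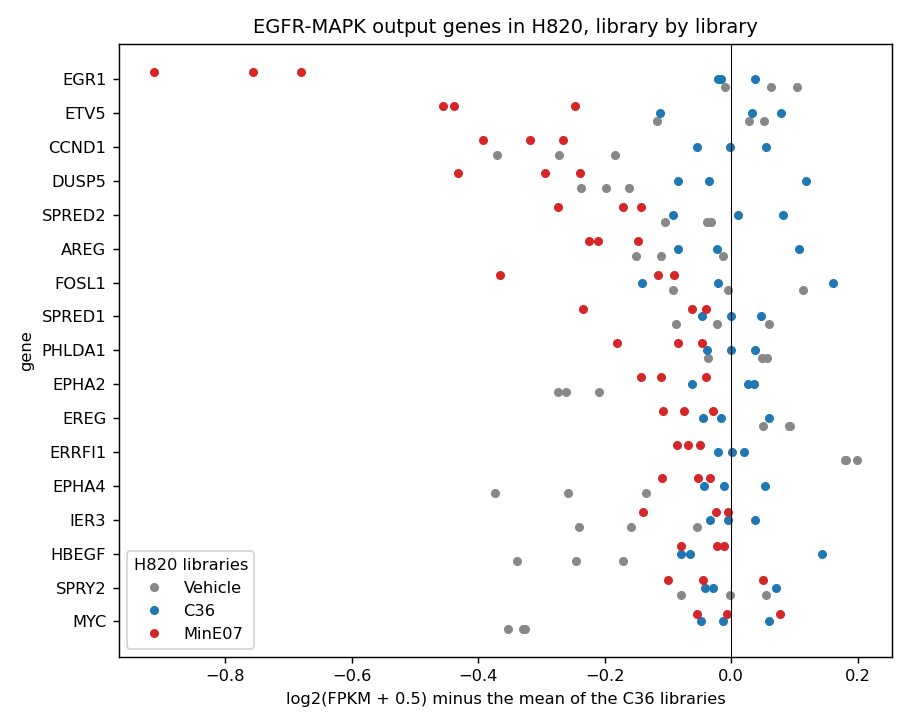
Log2(FPKM + 0.5) of each H820 library minus the C36 mean (x axis) for the 17 tested EGFR-MAPK output genes (y axis), with 1 point a library. MinE07 points (red) lie left of all C36 points (blue) for 8 genes, EGR1 at the top, and vehicle points (grey) lie left of all C36 points for CCND1 and MYC among others.

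The other 11 output genes stayed below a mean of 1 FPKM over the 6 libraries. EGR2 and EGR3, close relatives of EGR1, were barely detected, and all MinE07 values lay below all C36 values. EGR2 measured 0.0829, 0.126 and 0.0759 FPKM with C36 and 0.0412, 0.0297 and 0.0214 with MinE07. EGR3 measured 0.0704, 0.0967 and 0.0609 against 0.0449, 0.0293 and 0.0323. FOS, the founding immediate early gene, measured 0.586, 0.464 and 0.613 FPKM with C36 and 0.368, 0.436 and 0.425 with MinE07, again without overlap. In a fit with no filter on low values none of the 3 passed, with adjusted p of 0.625, 0.803 and 0.750. ETV4, ETV1, SPRY1, SPRED3 and TGFA also stayed low, with overlapping libraries.

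The immediate early class as a whole did not follow EGR1. Of 25 genes, 17 were tested, with 8 higher and 9 lower and a median of -0.01 log2. JUN (37.5, 38.7 and 35.9 FPKM with C36, 37.7, 37.5 and 39.0 with MinE07), JUNB, ATF3, KLF6 and ZFP36 had overlapping libraries. JUND, an AP-1 subunit that is expressed at rest, measured 69.6, 72.9 and 69.9 with C36 and 66.8, 61.2 and 65.2 with MinE07 without overlap (-0.14 log2, adjusted p = 0.293). JUN and CCN1 rose with both aptamers against vehicle, JUN by 0.25 and 0.27 log2 and CCN1 by 0.39 and 0.43 with C36 and MinE07. Among 21 tested RAS, RAF, MEK and ERK components, 7 were higher and 14 lower, from -0.08 to 0.14 log2. None passed in limma, with 1 at an unadjusted p below 0.05, against 10.3% of all tested genes.

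**Figure D3:**
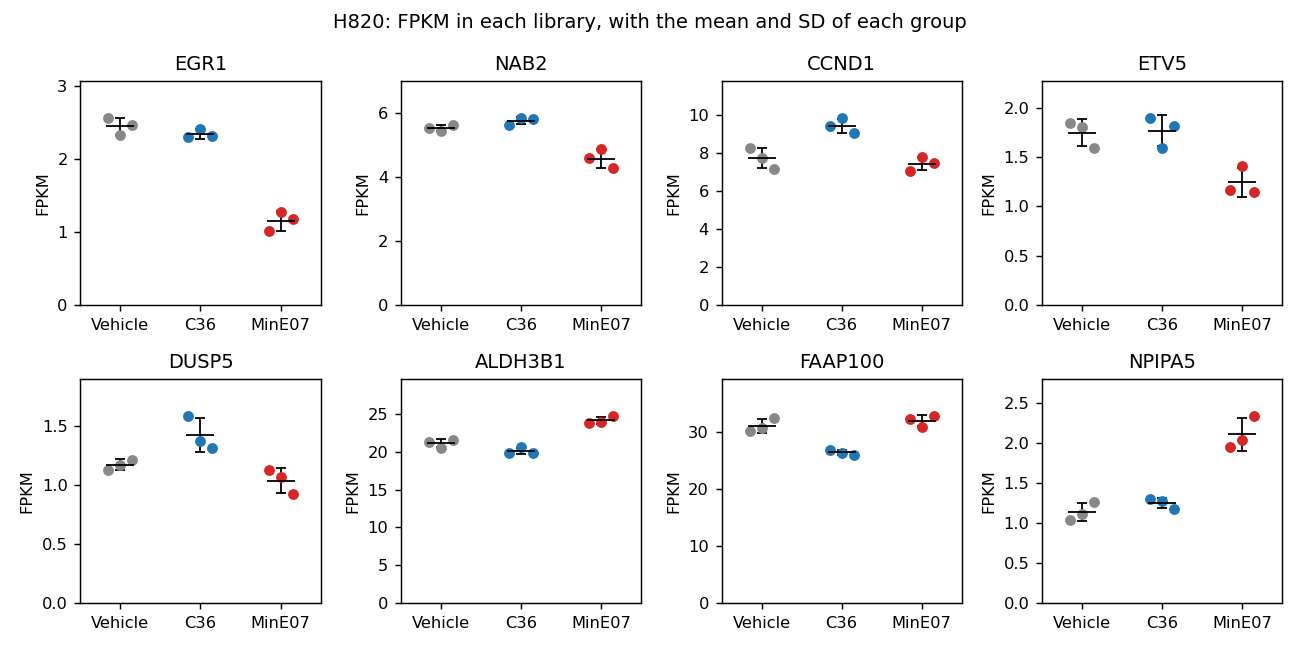
FPKM (y axis) in each H820 library by treatment for 8 genes, with points for libraries and a bar for the mean with its SD (n = 3). EGR1, NAB2 and ETV5 are lower with MinE07 than in both other groups, whereas for CCND1 and FAAP100 the C36 libraries are the group that differs from vehicle.

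The 3 genes that rose are not members of the EGFR-MAPK list. ALDH3B1, an aldehyde dehydrogenase that oxidises lipid-derived aldehydes (chromosome 11, 68008578 to 68029282, plus strand), measured 19.9, 20.6 and 19.9 FPKM with C36, 23.9, 24.0 and 24.8 with MinE07 and 21.3, 20.6 and 21.6 with vehicle. It rose by 0.26 log2 against C36 (SE 0.03, adjusted p = 0.0264) and by 0.19 against vehicle (adjusted p = 0.00822). FAAP100, a subunit of the Fanconi anaemia core complex for repair of DNA crosslinks (chromosome 17, 81539885 to 81553961, minus strand), measured 26.9, 26.3 and 26.0 with C36, 32.3, 30.8 and 32.7 with MinE07 and 30.1, 30.6 and 32.4 with vehicle. FAAP100 rose by 0.27 log2 between the aptamers (SE 0.03, adjusted p = 0.0380). Against vehicle MinE07 left it at 0.04 log2 (adjusted p = 0.563), and it was C36 that lowered it, with -0.23 (adjusted p = 0.00831).

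NPIPA5, a member of a multi-copy family on chromosome 16 (15363624 to 15381047, minus strand), measured 1.30, 1.27 and 1.18 FPKM with C36 and 1.95, 2.03 and 2.34 with MinE07, a rise of 0.57 log2 (SE 0.07, adjusted p = 0.0380). A second entry of the same gene name, NPIPA5-2, went the opposite way, from 1.70, 1.78 and 1.46 to 1.41, 1.18 and 1.13 (-0.30 log2, adjusted p = 0.278), and since near-identical copies can share reads the value for NPIPA5 is uncertain. The calls of ALDH3B1, FAAP100 and NPIPA5 were each lost when any 1 of the 6 aptamer libraries or vehicle replicate 1 was left out. They were also lost with the 6 aptamer libraries alone, with the replicate number as a factor, without trend or robust moderation, and with no filter on low values. With the spread of 36 libraries NPIPA5 was lost in limma (adjusted p = 0.470), and the other calls stayed. TCIM, a small protein linked to Wnt signalling, was just outside the threshold. It measured 2.68, 2.62 and 2.58 FPKM with C36 and 3.41, 3.58 and 3.91 with MinE07 (0.40 log2, adjusted p = 0.0527).

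Both aptamers differed from vehicle in more genes than from each other. MinE07 and vehicle differed in 437 genes (291 higher, 146 lower; 3.2% of those tested). C36 and vehicle differed in 406 (224 higher, 182 lower; 2.98%). These comparisons share libraries with each other and with that of the aptamers.

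Cell-cycle genes showed small differences in 1 direction. Their list, too, was chosen with earlier results of these data known. Of the 29 G2-M and mitosis genes, all tested, 28 were lower with MinE07 than with C36, and for 13 the MinE07 libraries all lay below the C36 libraries, against 6.81% of all tested genes. None passed the test, 13 had an unadjusted p below 0.05 against 3.4% of all tested genes, and the median was -0.07 log2. MKI67, the Ki-67 proliferation antigen, measured 23.5, 24.0 and 24.2 FPKM with C36, 22.1, 21.1 and 20.9 with MinE07 and 23.3, 24.6 and 26.7 with vehicle. CENPE, a kinetochore motor, measured 5.56, 5.56 and 5.99 with C36 and 5.26, 5.07 and 4.96 with MinE07. With MinE07 both genes fell against vehicle, MKI67 by 0.21 log2 (adjusted p = 0.0356) and CENPE by 0.27 (adjusted p = 0.00577). AURKA, a spindle kinase, fell with MinE07 against vehicle by 0.15 (adjusted p = 0.0285). The control aptamer moved the list the same way. Against vehicle, 26 of the 29 genes were lower with C36, at a median of -0.06 log2, and 28 with MinE07, at -0.13. Of the 29, 2 were called lower with C36 (1.33% of all tested genes were) and 14 with MinE07 (1.07%).

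Promoters of mitotic genes often carry the cell-cycle homology element, whose core can read TTTGAA. The last 80 bases before the RefSeq start of 3 G2-M genes are shown in GRCh38.p14 with that hexamer in capitals. They are examples that hold the hexamer, from a list whose genes were mostly lower together. MKI67 is at chr10:128126424-128126503 on the minus strand, KIF23 at chr15:69414269-69414348 and PLK1 at chr16:23678809-23678888, both on the plus strand.
MKI67: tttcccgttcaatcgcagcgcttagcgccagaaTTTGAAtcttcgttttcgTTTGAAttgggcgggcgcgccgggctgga
KIF23: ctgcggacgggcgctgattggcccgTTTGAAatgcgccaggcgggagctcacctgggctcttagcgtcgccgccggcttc
PLK1: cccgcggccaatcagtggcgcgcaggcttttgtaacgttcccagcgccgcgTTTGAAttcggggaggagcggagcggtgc
On either strand of the 250 bases before the start, the hexamer was found in 13 of the 23 G2-M genes in the RefSeq table, against 16.1% of all 27305 genes there. It was found in 3 of 19 EGFR-MAPK output genes.

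Of 28 tested G1-S and replication genes, 22 were lower, with a median of -0.03 log2 (-0.05 without MinE07 replicate 2). In 9 the MinE07 libraries all lay below the C36 libraries, against 6.81% of all tested genes. RRM2, a ribonucleotide reductase subunit, measured 32.5, 31.8 and 34.5 FPKM with C36 and 29, 30.9 and 29.2 with MinE07 (-0.15 log2, adjusted p = 0.295). Genes of sterol and fatty acid synthesis lay on the other side, with 24 of 26 higher, 4 without overlap against 10.4% of all tested genes, and a median of 0.03. That count rested on single libraries: without MinE07 replicate 1 it was 14 of 26, at a median of 0.0067, and without C36 replicate 2 it was 19 of 26, at 0.015. The median was 0.051 without MinE07 replicate 2. Against vehicle the list was lower with both aptamers. With C36 23 of the 26 genes were lower, at a median of -0.14 log2, and with MinE07 21, at -0.06. Of the 26, 11 were called lower with C36 (1.33% of all tested genes were) and 1 with MinE07 (1.07%). HMGCS1, an early enzyme of cholesterol synthesis, measured 38.0, 37.3 and 37.7 with C36, 41.5, 41.3 and 42.0 with MinE07 and 43.0, 44.6 and 42.0 with vehicle. For HMGCS1 and the pathway gene MVD the change that passed was between C36 and vehicle, with -0.19 log2 (adjusted p = 0.00594) and -0.25 (adjusted p = 0.00694), whereas MinE07 and vehicle differed by -0.05 and -0.07 without passing.

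YAP-TEAD target genes were higher in 11 of 15 cases, 5 without overlap against 10.4% of all tested genes, with a median of 0.04 log2. The median was 0.02 without C36 replicate 3, and without MinE07 replicates 1 and 2 it was -0.0064, with 7 of 15 higher. ANKRD1, a classical target, measured 8.06, 8.68 and 7.37 FPKM with C36, 8.74, 10.1 and 9.96 with MinE07 and 6.49, 5.61 and 6.26 with vehicle. It rose against vehicle with both aptamers, by 0.37 log2 with C36 (adjusted p = 0.0294) and by 0.61 with MinE07 (adjusted p = 0.00254). Interferon response genes were lower in 16 of 25 cases with a median of -0.01, and 12 tested RNA sensors had a median of 0.00. OAS2, an RNA-activated synthetase, measured 3.08, 2.62 and 2.98 with C36 and 2.21, 2.49 and 2.12 with MinE07 (-0.29 log2, adjusted p = 0.222). STAT3 measured 41.5, 40.6 and 40.8 against 44.2, 42.4 and 43.9 (0.08 log2, adjusted p = 0.342), while its 10 tested targets had a median of -0.01. In the PI3K, AKT and FOXO list 13 of 24 genes were higher, and none passed in limma. At an unadjusted p below 0.05 were 5 of the 24 (2 higher, 3 lower), against 10.3% of all tested genes. BMF, a pro-death BCL2 family member restrained by ERK signalling, measured 10.1, 10.2 and 10.4 with C36 and 11.6, 10.8 and 10.7 with MinE07 (0.10 log2, adjusted p = 0.386).

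**Figure D4:**
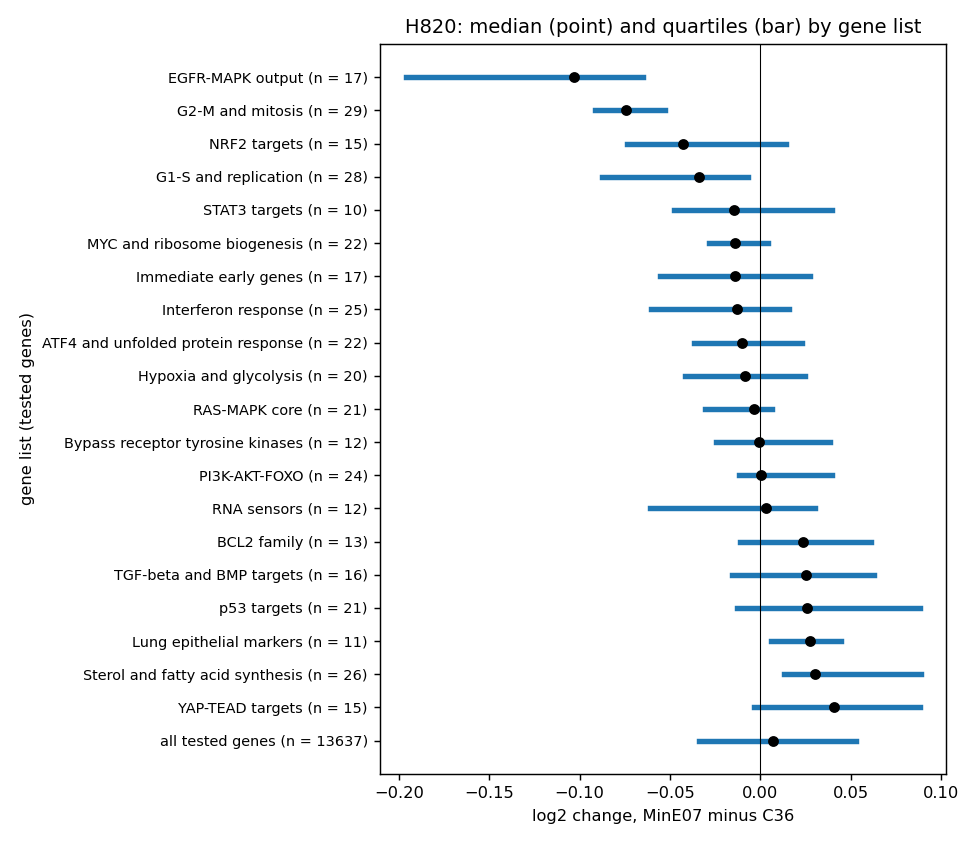
Median (point) and quartiles (bar) of the log2 difference between MinE07 and C36 in H820 (x axis) for lists with at least 10 tested genes, n in brackets (y axis), and for all tested genes. The EGFR-MAPK output genes have the lowest median, -0.10, followed by the G2-M genes at -0.07. The lists were chosen with earlier results of these data known.

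The difference between the lines was tested with an interaction term in 1 fit of all 36 libraries, on the genes tested in H820. MinE07 and C36 differed in 5021 genes in H3255 (36.8%), 3073 in H1975 (22.5%) and 177 in A549 (1.3%), against 17 in H820. The change in H820 differed from that in H3255 for 2506 genes (1489 higher, 1017 lower; 18.4%), from that in H1975 for 974 (566 higher, 408 lower; 7.14%) and from that in A549 for 29 (8 higher, 21 lower; 0.213%). After rescaling by medians of ratios these splits were 1316 and 1172, 435 and 505, and 21 and 42.

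EGR1 fell in all 4 lines, with log2 differences of -0.78 in H820, -0.92 in H3255, -0.61 in H1975 and -0.56 in A549. Its vehicle means were 2.45 FPKM in H820, 16.9 in H3255, 8.17 in H1975 and 2.93 in A549. The added 0.5 therefore understates the change of EGR1 more in H820 and A549. Sizes of other genes compared between lines carry the same limit wherever the gene is low. The change of EGR1 in H820 was not shown to differ from that in H3255 (difference 0.13, 95% interval -0.07 to 0.33), H1975 (-0.17, -0.37 to 0.03) or A549 (-0.23, -0.43 to -0.03), with adjusted p of 0.391, 0.339 and 0.344. By direction alone, 16 of the 17 tested output genes were lower in H820, 16 in H3255, 17 in H1975 and 16 in A549. Of all 13637 tested genes, 6252, 7018, 7130 and 6860 were lower in these lines in turn. The medians of the 17 were -0.10 log2 in H820, -0.60 in H3255, -0.32 in H1975 and -0.10 in A549. Many output genes other than EGR1 had a smaller change in H820 than in the L858R lines. For 11 of 17 genes the change was smaller than in H3255 (10.9% of all tested genes were called in that direction), led by EREG (-0.07 in H820, -1.31 in H3255), AREG (-0.19 and -1.37) and IER3 (-0.06 and -0.77). For 6 of 17, namely FOSL1, IER3, MYC, CCND1, EPHA2 and AREG, it was smaller than in H1975 (4.15% of all tested genes).

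A549 was grown in DMEM, so line and medium cannot be told apart in that comparison. Against A549 only CCND1 of the 17 differed, with -0.33 log2 in H820 and -0.03 in A549 (difference -0.29, SE 0.05, adjusted p = 0.0131; 0.154% of all tested genes called lower). ETV5 had -0.38 in H820, -0.21 in H3255, -0.46 in H1975 and -0.08 in A549, and none of its differences from H820 passed (adjusted p of 0.120, 0.632 and 0.0801). FAAP100 was called in none of the other lines, at 0.03, 0.04 and -0.03 log2, and its change in H820 differed from each (adjusted p of 0.00165 for H3255, 0.00564 for H1975 and 0.0131 for A549). It was picked because it was called in these same H820 libraries. As given above, in H820 it was C36 that lowered FAAP100 and raised CCND1 against vehicle. MinE07 did not differ from vehicle by the test for FAAP100, and its libraries overlapped vehicle for CCND1. ALDH3B1 rose by 1.57 in H3255 and by 0.47 in H1975, more than the 0.26 of H820 in both cases. In A549 it was at 0.04, which did not differ from H820 by the test (adjusted p = 0.0833).

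For the G2-M list 29 of 29 genes were called lower in H3255 (20% of all tested genes were) and 26 in H1975 (12.2%). In A549 4 were called higher (0.829%), and none passed in H820. By direction alone, 29 of 29 were lower in H3255 and in H1975 and 28 in H820, whereas 24 were higher in A549. By the interaction term, the change was less negative in H820 than in H3255 for 22 of 29 (10.9% of all tested genes in that direction) and than in H1975 for 7 (4.15%). Against A549 4 of 29 differed, KIF23, CENPE, NDC80 and DLGAP5, all with the lower value in H820 (0.154%). The number of genes called against A549 ranged from 4 to 34 when a single library was left out, so these calls rest on few libraries.

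**Figure D5:**
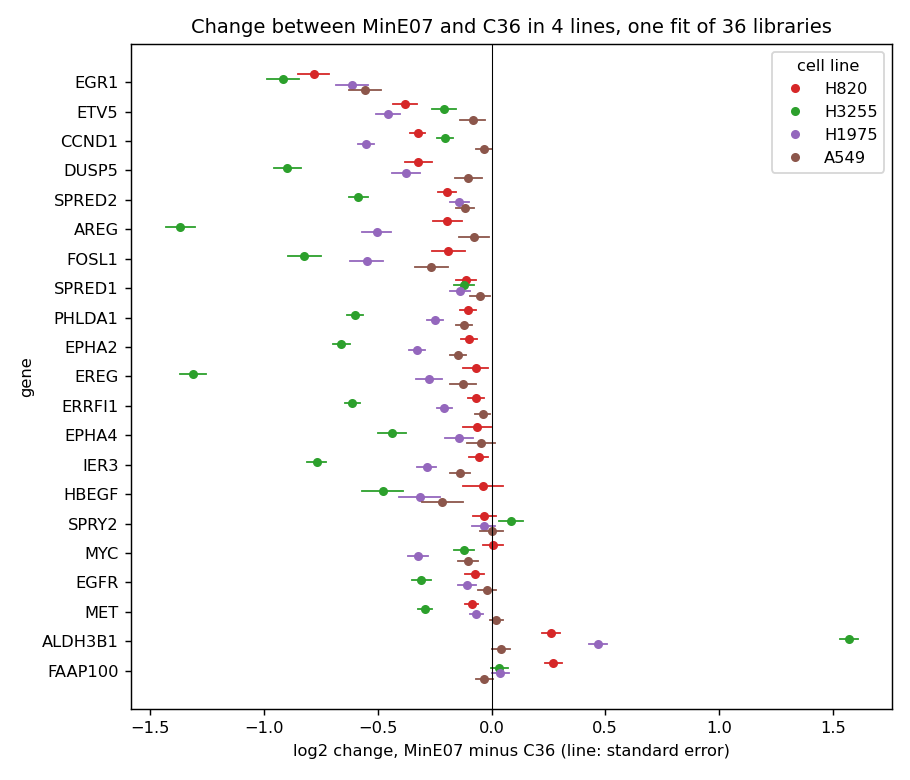
Log2 difference between MinE07 and C36 (x axis) with its standard error for the 17 EGFR-MAPK output genes, EGFR, MET, ALDH3B1 and FAAP100 (y axis) in 4 lines, from 1 fit of 36 libraries. H820 (red) lies beside the other lines for EGR1 and nearer 0 than H3255 (green) for AREG, EREG and IER3.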

How the data were processed

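The deposited files give FPKM per gene and library. HISAT2, Cuffdiff and the builds GRCh38.p12 and hg38 are named in the submitters' processing notes, with no version or annotation. Files were joined by gene name, and 1874 unnamed and 31 repeated entries were left out. The main fit took the 9 H820 libraries, with group means on log2(FPKM + 0.5), limma 3.58.1 with trend and robust moderation in R 4.3.3, and Benjamini-Hochberg adjustment over 13637 genes. Differences between lines are interaction terms over 36 libraries. Relative depth came from the steps between low FPKM values. Scripts were tested on simulated data.

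The members and lists were chosen with earlier results of these data known. Genes named are the called genes, the receptors, the tested signalling genes, the 4 smallest p of each other list and the largest changes. Counts of calls depend on the fit: leaving out libraries gave 1 to 4. Nothing ties replicate numbers across groups. Promoters come from RefSeq on GRCh38.p14.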

Additional observations from a re-analysis of the deposited data

Results flagged for a closer look

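The change between MinE07 and C36 in H820 differed from that in another line, by an interaction term in limma with an adjusted p below 0.05, for the results below. The genes examined against each line were the same, namely 29 G2-M and mitosis genes and 24 others, which are the genes called in H820, the EGFR-MAPK output genes and the receptors. The genes called in H820 were picked from the same H820 libraries. Each value is the log2 change in H820 minus that in the other line. No group here has enough libraries for a test of single outlying samples.

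Against H3255, 16 of the 24 differed, with adjusted p from 5.11e-16 to 0.0471. Of all tested genes, 18.4% differed from H3255. The differences in EGFR-MAPK output genes were 0.58 for DUSP5, 0.39 for SPRED2, 0.63 for FOSL1, 0.71 for IER3, 0.50 for PHLDA1, 0.56 for EPHA2, 0.37 for EPHA4, 0.55 for ERRFI1, 1.17 for AREG, 1.24 for EREG and 0.44 for HBEGF. Each of these had the larger negative change in H3255. The receptors differed by 0.23 for EGFR and 0.21 for MET, and by -0.21 for ERBB3. The value was -1.31 for ALDH3B1, which rose in both lines, and 0.24 for FAAP100. Of the 29 mitotic genes 22 differed, with adjusted p from 8.44e-06 to 0.0380, and each had the lower value in H3255. The differences were 0.32 for TOP2A, 0.37 for CDK1, 0.18 for CCNB1, 0.17 for CCNB2, 0.19 for CCNA2, 0.26 for AURKA, 0.44 for AURKB, 0.16 for PLK1, 0.19 for CDC20, 0.34 for CDC25C and 0.17 for BUB1. They were 0.22 for BUB1B, 0.41 for UBE2C, 0.23 for BIRC5, 0.24 for KIF11, 0.19 for KIF23, 0.19 for NUSAP1, 0.23 for TPX2, 0.34 for ESPL1, 0.24 for NUF2, 0.18 for HMMR and 0.19 for DLGAP5.

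Against H1975, 10 of the 24 differed, with adjusted p from 0.00110 to 0.0345. Of all tested genes, 7.14% differed from H1975. The output genes gave 0.36 for FOSL1, 0.23 for IER3, 0.33 for MYC, 0.23 for CCND1, 0.23 for EPHA2 and 0.31 for AREG. The receptor value was -0.25 for ERBB3. The genes called in H820 gave -0.21 for ALDH3B1, 1.16 for NPIPA5 and 0.23 for FAAP100, and the multi-copy NPIPA5 is uncertain. Of the 29 mitotic genes 7 differed, with adjusted p from 0.000239 to 0.0418, namely 0.22 for CCNA2, 0.30 for AURKB, 0.18 for PLK1, 0.26 for CDC20, 0.15 for KIF20A, 0.18 for KIF23 and 0.14 for TPX2. Each of the 7 had the lower value in H1975.

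Against A549, where 0.213% of all tested genes differed, 2 of the 24 and 4 of the 29 mitotic genes did, with adjusted p from 0.0131 to 0.0398. They were 0.30 for FAAP100 and -0.29 for CCND1, and among mitotic genes -0.28 for KIF23, -0.35 for CENPE, -0.37 for NDC80 and -0.30 for DLGAP5. Each of the 4 mitotic genes was lower with MinE07 in H820 and higher in A549. For FAAP100 and CCND1 in H820, C36 itself differed from vehicle, as given above.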

How the results depend on the processing

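EGR1 stayed past the threshold under each of the 19 alternatives run, from -0.97 to -0.63 log2, and between -0.83 and -0.72 with single libraries left out. The count of 4 genes called (of which EGR1 was 1 each time) became 2 with the 6 aptamer libraries alone, 17 with the spread of 36 libraries, and 1 without trend or robust moderation. It was 1 to 4 with 1 library left out. ALDH3B1, FAAP100 and NPIPA5 were lost without any 1 of the aptamer libraries. Without MinE07 replicates 1 and 2, an alternative chosen after seeing the data, it was 2. With the replicate block, which treats the replicate number as a factor, it was 1 (EGR1, adjusted p = 0.0310). The numbers were not shown to pair samples, since deviations of same-numbered libraries correlated at -0.19 to 0.10 over 9 pairs.

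The median of the EGFR-MAPK output genes ranged from -0.13 to -0.09 log2 over the alternatives, and that of the G2-M genes from -0.09 to -0.05. The number of genes whose change differed from A549, 29, became 63 after rescaling and 16 with the replicate block, and 4 to 34 with 1 library left out. With 1 library left out, the 974 against H1975 became 598 to 1054, and the 2506 against H3255 became 2079 to 2511. The H1975 count was 634 and 598 without H820 MinE07 replicates 2 and 3 in turn. It was 649 without H1975 C36 replicate 2 and 630 without H1975 MinE07 replicate 3. A pseudocount of 1 gave 1059 genes against H1975 and 2522 against H3255. Of the other named genes none that passed in either setting changed direction. TRNV, a mitochondrial transfer RNA listed at 0 in the 3 MinE07 libraries, was called when genes at 0 were kept. FPKM carries no read numbers, so low genes such as EGR2 cannot be given a detection limit.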

Other observations

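Tested genes outside the lists were ranked if their aptamer groups were separate and the unadjusted limma p was below 0.01. Among them, SNORA73B and NME1-NME2 had the most negative differences between MinE07 and C36 in H820. MDP1-2 had the most positive, followed by NPIPA5. Of the genes just named, only NPIPA5 passed the test. SNORA73B, a small nucleolar RNA gene, measured 2.79, 1.84 and 2.27 FPKM with C36 and 0.296, 0.994 and 0.797 with MinE07 (-1.26 log2, adjusted p = 0.221). Its vehicle libraries, at 1.71, 1.54 and 1.11, lay between the aptamer groups. NME1-NME2, a readthrough transcript that overlaps NME1 and NME2, measured 2.5, 2.26 and 2.55 with C36 and 0.612, 1.35 and 1.46 with MinE07 (-0.88, adjusted p = 0.293). SYT12, a synaptotagmin, measured 1.49, 1.47 and 1.22 with C36 and 0.954, 0.874 and 0.920 with MinE07 (-0.42, adjusted p = 0.120). The aptamer groups of MDP1-2 were separate, at 1.77, 1.16 and 1.43 with C36 and 2.39, 2.72 and 2.38 with MinE07 (0.63, adjusted p = 0.120), and the vehicle libraries overlapped those of MinE07.

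Further members of the lists had separate groups without passing. CEBPB, a basic leucine zipper factor that ERK can phosphorylate, measured 15.1, 15.8 and 15.1 FPKM with C36 and 13.3, 12.6 and 13.1 with MinE07 (-0.23 log2, adjusted p = 0.202), and it fell against vehicle by 0.18 (adjusted p = 0.0496). VEGFA, the angiogenic growth factor, measured 5.70, 5.72 and 5.57 against 5.08, 5.33 and 5.17 (-0.12, adjusted p = 0.319). SLC34A2, the alveolar phosphate transporter, measured 3.13, 3.02 and 2.93 with C36, 3.91, 3.45 and 3.49 with MinE07 and 2.37, 2.26 and 2.80 with vehicle. It rose with MinE07 against vehicle by 0.47 log2 (adjusted p = 0.00682), while between the aptamers the difference was 0.22 (adjusted p = 0.342). NOTUM, a secreted enzyme that inactivates Wnt ligands, measured 1.08, 1.23 and 0.841 with C36 and 1.41, 1.25 and 1.81 with MinE07 (0.36, adjusted p = 0.342), and it rose against vehicle by 0.66 (adjusted p = 0.0129).

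TRNV, the mitochondrial valine transfer RNA, is listed at 0 in the 3 MinE07 libraries, at 601, 369 and 936 FPKM in the C36 libraries and at 668, 964 and 505 with vehicle. Whether that 0 was measured or is a failed estimate cannot be read from the files. TRNM, TRNE, TRNF and TRNL1 are each listed at 0 in some libraries of more than 1 group. COX1, at 0 in MinE07 replicates 1 and 2, is listed at 10704 FPKM in MinE07 replicate 3, and CYTB, from the same genome, is at 3168, 3193 and 3144 in the 3 MinE07 libraries.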
